A study of Mus musculus with 4 samples.

Results

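Transcripts of 10 neutrophil granule and alarmin genes were measured in single cells of the mouse digit, before and after an amputation that is not followed by regrowth. The genes were a given list of symbols, and all 10 were found among the 32285 genes of the count tables. Elane (neutrophil elastase) and Mpo (myeloperoxidase) encode azurophil granule proteins. Camp (the cathelicidin antimicrobial peptide), Ngp (neutrophilic granule protein), Ltf (the iron-binding lactoferrin) and Lcn2 (lipocalin 2, which binds bacterial siderophores) encode specific granule proteins. Mmp8 encodes neutrophil collagenase, and Retnlg encodes the secreted resistin-like gamma. S100a8 and S100a9 encode the calcium-binding partners of calprotectin, which lies in the cytosol and acts as an alarmin once released.

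Neutrophils make their granule proteins in the bone marrow, in waves: azurophil proteins at the promyelocyte stage, specific granule proteins in myelocytes and metamyelocytes, and gelatinase granule proteins later still. A neutrophil that has left the marrow carries the stored proteins but little of the early granule mRNA, whereas mRNA of the alarmin pair persists. The set of granule transcripts in a cell is therefore used as a marker of how far a neutrophil has matured.

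Each of the 4 groups held 1 library, so no difference between groups has a replicate check, no test was possible and no p-value is given. The groups were unamputated second-phalanx (P2) tissue, labelled homeostatic, and P2 tissue labelled fibrosing at 12, 17 and 28 days post-amputation (dpa). All came from wild-type FVB/NJ mice of 8 weeks, labelled as pools of both sexes, and the number of animals in a pool is not given in the sources used here. The tissue was dissociated enzymatically, and living cells were sorted by exclusion of propidium iodide after lysis of erythrocytes. Values are unique molecular identifiers (UMIs), as CPM (UMIs of the gene per 1000000 UMIs of the cells named), and ranges in parentheses are exact 95% Poisson or Clopper-Pearson intervals that cover counting error only. UMIs were read at the 3′ end of transcripts and are not scaled by length, so levels are compared between cells and libraries, not between genes. In a whole library, fewer cells of a type and less RNA per cell cannot be told apart.

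Some libraries stood apart in ways that touch the results. Xist had 51477 UMIs at 12 dpa and 10 to 34 in the other libraries, whereas 4 Y-linked genes together had 23 UMIs at 12 dpa and 25309 to 70965 elsewhere. The 12 dpa comparison therefore also sets Xist-expressing tissue against tissue with Y-linked transcripts, and sex and day cannot be told apart there. Total depth ran from 92313847 to 197140774 UMIs, with 6514 to 10394 cells kept, and pairs of libraries shared 19 to 87 cell barcodes. Of 16 genes of other bone marrow cells, 0, 2, 0 and 1 had no UMI in the unamputated, 12, 17 and 28 dpa libraries, and their summed level was 413, 364, 693 and 945 CPM, mostly from Cd34, Pf4 and Sox4, which other cells of the digit express. Igll1, a gene of B cell precursors, had 161, 0, 69 and 1 UMIs, and Dntt, which adds nucleotides to antigen receptor joints, had 124, 5, 41 and 10. B lineage-like cells numbered 196, 0, 145 and 100.

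The promoters of 6 of the genes are shown because these genes separate most clearly in what follows: Camp, Ngp and Ltf share a narrow window of expression and a stretch of chromosome 9, S100a8 and S100a9 are neighbours with a different pattern, and Elane, among kept neutrophils, lay almost wholly in 1 small sub-cluster. All 10 genes were matched in the RefSeq promoter table (GRCm38.p6, 32851 promoters). Each line gives the gene's strand, 5′ to 3′, in lower case, from bases that lie before the annotated gene, and capitals mark a match to one of 2 motifs: TTGCNNAA for C/EBP factors or GAGGAAG for PU.1, either strand. The stretches are Camp chr9:109849618-109849706 on the minus strand, Ngp chr9:110419597-110419746 and Ltf chr9:111019121-111019270 on the plus strand, Elane chr10:79886097-79886246 and S100a8 chr3:90668828-90668977 on the plus strand, and S100a9 chr3:90695722-90695871 on the minus strand.
Camp: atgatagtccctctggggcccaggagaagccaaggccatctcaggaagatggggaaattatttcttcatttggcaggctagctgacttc
Ngp: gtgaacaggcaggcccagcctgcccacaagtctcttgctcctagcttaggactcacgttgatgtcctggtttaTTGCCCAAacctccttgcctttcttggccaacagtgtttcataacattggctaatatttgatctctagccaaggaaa
Ltf: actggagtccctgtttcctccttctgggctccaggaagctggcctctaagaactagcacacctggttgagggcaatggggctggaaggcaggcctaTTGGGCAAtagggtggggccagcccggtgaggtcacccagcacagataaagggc
Elane: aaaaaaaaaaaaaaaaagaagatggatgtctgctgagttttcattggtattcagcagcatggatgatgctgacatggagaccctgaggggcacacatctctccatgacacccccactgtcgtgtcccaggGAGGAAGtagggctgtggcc
S100a8: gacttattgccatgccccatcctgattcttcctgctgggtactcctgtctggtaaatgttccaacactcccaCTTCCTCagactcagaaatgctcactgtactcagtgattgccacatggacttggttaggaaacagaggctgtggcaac
S100a9: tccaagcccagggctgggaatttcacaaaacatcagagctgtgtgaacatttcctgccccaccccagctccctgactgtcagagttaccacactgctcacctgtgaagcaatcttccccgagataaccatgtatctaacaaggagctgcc

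Over the 250 bases before the start, TTGCNNAA was present in 6 of the 10 genes (S100a9, Ngp, Ltf, Lcn2, Mmp8 and Retnlg) and in 9.56% of all promoters of that length. GAGGAAG was present in 5 of the 10 (S100a8, Lcn2, Mmp8, Elane and Mpo) and in 10.6% of all promoters. Camp held neither. C/EBP epsilon and PU.1 are transcription factors of granulocyte development, and the matches are letters in a window, not measured sites. In GENCODE M21 (GRCm38), Camp, Ngp and Ltf lie in order on chromosome 9, 570.13 kb and 596.259 kb apart, with Camp at 109847379 to 109849617, Ngp at 110419747 to 110423012 and Ltf at 111019271 to 111042767. S100a8 and S100a9 lie 22.597 kb apart on chromosome 3, at 90668978 to 90670035 and 90692632 to 90695721.

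Neutrophils fell into 2 classes when cells were clustered without these 10 genes. Immature neutrophil-like cells (clusters 10 and 28) were led by Chil3, Wfdc21, Pglyrp1 and Fcnb, and cluster 19, called mature neutrophil-like here, was led by Ccrl2, Cxcl2, Il1b, Ccl3 and Hdc. Over all libraries, Ly6g was at 328 CPM in immature and 9.77 CPM in mature cells, Cebpe at 158 and 6.64 CPM, Csf3r at 261 and 1432 CPM, and Il1b at 518 and 8289 CPM. The immature class held 516 cells in the unamputated, 2 in the 12 dpa, 221 in the 17 dpa and 0 in the 28 dpa library, or 4.96%, 0.0307%, 2.79% and 0% of kept cells. At 28 dpa, 0 of 10125 cells allows a share of up to 0.0296%. The mature class was present in every library, with 526, 278, 236 and 182 cells, or 5.06% (4.65 to 5.4996), 4.27% (3.79 to 4.79), 2.98% (2.62 to 3.38) and 1.80% (1.55 to 2.08).

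Both classes together made up 10.0% (9.45 to 10.6), 4.30% (3.82 to 4.82), 5.77% (5.27 to 6.31) and 1.80% of kept cells in the unamputated, 12, 17 and 28 dpa libraries. Mature cells were shallow, with a median of 2310, 1761.5, 1893.5 and 1413.5 UMIs against a filter at 1000, so the filter sets part of these shares. With at least 2000 UMIs and 1000 genes and at most 5% mitochondrial UMIs required, the shares of the 3 dpa libraries became 0.558%, 3.18% and 0.0576%. Immature cells had a median of 6485 UMIs in the unamputated and 4769 in the 17 dpa library.

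Over whole libraries, the 10 genes took 1.01% of all kept UMIs in the unamputated library and 0.637% at 17 dpa, but 0.0332% at 12 dpa and 0.0145% at 28 dpa. The unamputated and 17 dpa libraries thus lay on one side and the 12 and 28 dpa libraries on the other, an order that does not follow the days. The same split was seen in the immature cell counts and in Igll1 and Dntt, and the part of marrow cells in it was not tested.

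The azurophil genes were scarce everywhere. Elane was at 3.41, 0, 8.20 and 0.0254 CPM in the unamputated, 12, 17 and 28 dpa libraries, with 485, 0, 642 and 2 UMIs. Mpo was at 2.39, 1.10, 4.45 and 0.343 CPM. Elane was at least 84.8-fold lower at 12 dpa than in the unamputated library, and the log2 ratio from its 2 UMIs at 28 dpa was -7.07 (-10.1 to -5.21). At 17 dpa, both genes were higher than in the unamputated library, Elane 2.40-fold and Mpo 1.86-fold. A single immature cell held 395 of the 642 Elane UMIs at 17 dpa, and another held 148 of the 485 in the unamputated library. Immature neutrophils held 616 of the 642 Elane UMIs at 17 dpa but 184 of the 348 Mpo UMIs, and 78 Mpo UMIs lay in 1 cell of the unnamed cluster 0.

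Camp, Ngp and Ltf had the widest gap between libraries. Camp was at 1145, 0.241, 679 and 0.280 CPM in the unamputated, 12, 17 and 28 dpa libraries, from 162694, 18, 53177 and 22 UMIs. Ngp was at 694 and 425 CPM in the unamputated and 17 dpa libraries and had 2 UMIs at 12 dpa and 1 at 28 dpa, for log2 ratios of -14.7 (-17.7 to -12.8) and -15.7 (-21.0 to -13.3). Ltf was at 183, 0.215, 95.9 and 0.0890 CPM. For these genes the 12 and 28 dpa libraries were near empty: Camp was 4741-fold and 4093-fold lower than in the unamputated library, and Ltf 852-fold and 2055-fold lower. Lcn2, at 255, 2.71, 168 and 1.27 CPM, was 94.2-fold lower at 12 dpa and 200.8-fold lower at 28 dpa. The 17 dpa library differed much less, with Camp 1.68-fold, Ngp 1.63-fold, Ltf 1.91-fold and Lcn2 1.52-fold lower.

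Mmp8, Retnlg and the alarmins differed less than Camp, Ngp and Ltf. Mmp8 was at 24.8, 0.496, 15.4 and 0.381 CPM, and Retnlg at 320.4, 3.25, 319.5 and 6.66 CPM. Retnlg was the 1 gene of the 10 with nearly the same level at 17 dpa as in the unamputated library, 1.00-fold, and it was 98.7-fold lower at 12 dpa and 48.1-fold lower at 28 dpa. S100a8 was at 3727, 135, 1934 and 51.2 CPM, and S100a9 at 3741, 189, 2719 and 84.3 CPM. S100a8 was 27.6-fold lower at 12 dpa and 72.7-fold lower at 28 dpa, and S100a9 19.8-fold and 44.4-fold lower.

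**Figure D1:**
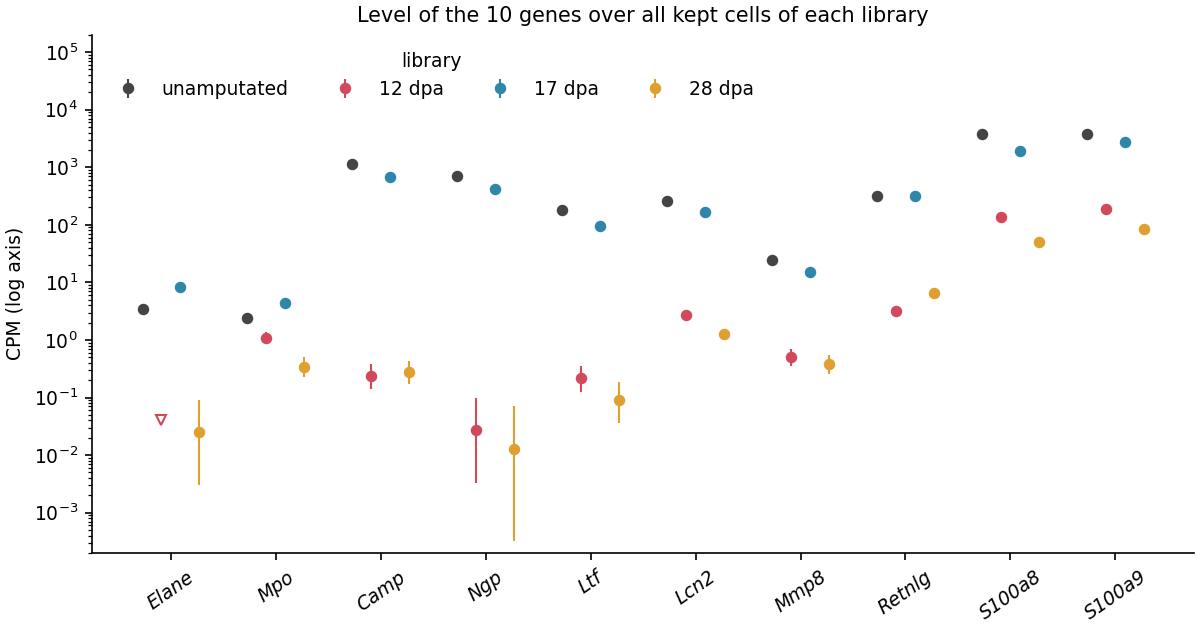
Level of each of the 10 genes over all kept cells, in CPM on a log axis, with 1 point per library and bars for the exact Poisson 95% interval; an open triangle marks 0 UMIs, drawn at the level of 3 UMIs. The unamputated and 17 dpa points lie within 2.40-fold of each other for every gene, and the 12 and 28 dpa points lie far below them for Camp, Ngp, Ltf and Lcn2, with Camp at 0.241 and 0.280 CPM against 1145 and 679.

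Calls here mean a difference of at least 2-fold between a dpa library and the unamputated library, counted over the genes that reached 50 CPM in whichever library was higher. Of the 10 genes, 7 reached that minimum over the whole library. At 12 dpa, 7 of 7 were lower, where 1.9% of 4306 genes were called lower and 1.23% higher. At 28 dpa, 7 of 7 were lower, where 5.61% of 4350 genes were called lower and 2.62% higher. On both days, Camp, Ngp, Ltf, Lcn2 and Retnlg reached 50 CPM through the unamputated library alone, so these counts are a description. At 17 dpa, 0 of 7 were called in either direction, where 1.77% of genes were lower and 1.63% higher. Over all 10 genes, the median log2 ratio with 1 CPM added was -5.44, -0.62 and -5.81 at 12, 17 and 28 dpa, or -6.48, -0.64 and -6.63 with genes at 0 set at their bound. All genes of at least 50 CPM had medians of -0.26, -0.11 and -0.19.

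Most UMIs of the granule genes lay in immature cells where these were present. Over every deposited barcode, immature neutrophil-like cells held 79.9% of the 201611 Camp UMIs of the unamputated library and 76.2% of 68950 at 17 dpa. Mature cells held 0.0208% and 0.0102% of them. Barcodes removed as likely doublets held most of the rest, 18.4% and 21.5%, and other kept classes 0.785% and 0.947%. For S100a8, immature cells held 77.4% and 72.8%, and mature cells 3.34% and 4.37%. In the libraries nearly without immature cells the alarmins lay mainly in mature cells instead, which held 74.0% of 11732 S100a8 UMIs at 12 dpa and 65.1% of 5400 at 28 dpa.

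Elane and Mpo differed from the other 8 genes in that the barcodes removed as doublets held most of their UMIs. In the unamputated library these barcodes held 76.6% of 2081 Elane UMIs and 73.3% of 1305 Mpo UMIs, and at 17 dpa 63.0% of 1740 and 57.9% of 831. Barcodes with at least 10 Elane UMIs numbered 18 in the unamputated and 13 in the 17 dpa library, and 0 at 12 and 28 dpa. Of these, 10 and 7 had been removed as doublets, 13 and 9 also held at least 10 Mpo UMIs, and 7 and 9 held at least 10 Camp UMIs. These few barcodes held 2004 of the 2081 Elane UMIs of the unamputated library and 1712 of the 1740 at 17 dpa. Whether they are doublets or single cells with large RNA content was not tested.

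**Figure D2:**
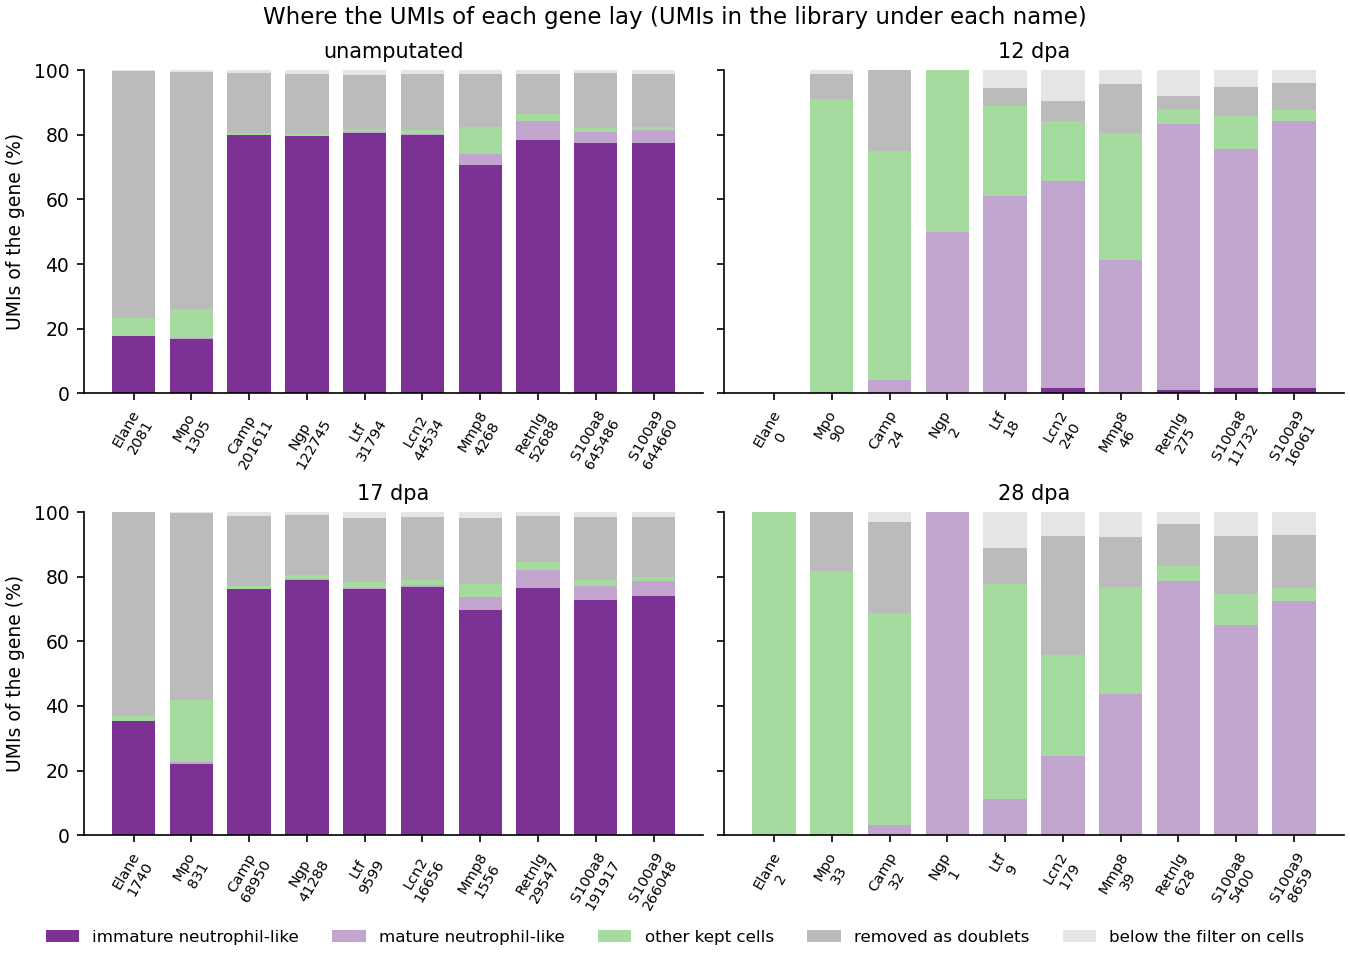
Share of each gene's UMIs, in percent, that lay in immature neutrophil-like cells, mature neutrophil-like cells, other classes, barcodes removed as doublets and barcodes of low quality, 1 panel per library, with the gene's UMIs over all barcodes under its name. Immature cells hold most UMIs of the specific granule genes in the unamputated and 17 dpa panels, mature cells hold most S100a8 and S100a9 UMIs in the 12 and 28 dpa panels, and doublet-marked barcodes hold most Elane UMIs in the unamputated and 17 dpa panels.

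Within the immature class, the 10 genes made up 36.5% of all UMIs in the unamputated library and 34.96% at 17 dpa, and most of them were at closely similar levels. Camp was at 43116 CPM (42905 to 43327) and 39344 CPM (39009 to 39682), Ngp at 26175 and 24455 CPM, Ltf at 6868 and 5487 CPM, and Lcn2 at 9518 and 9593 CPM. Mmp8 was at 809 (780 to 838) and 811 CPM (764 to 861), a log2 ratio of 0.0043 (-0.10 to 0.10). S100a8 was lower at 17 dpa, 104603 against 133815 CPM, while S100a9 was higher, 147744 against 133869 CPM. Retnlg was 1.54-fold higher at 17 dpa, 16950 against 11039 CPM. The median log2 ratio over the 10 genes was 0.0078, and -0.075 over 2712 genes of at least 50 CPM.

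Elane and Mpo were the 2 of 10 genes called higher in immature cells at 17 dpa, where 1.66% of genes were called higher, and 0 of 10 were called lower, against 0.885% of genes. Elane was at 98.5 CPM in the unamputated library, from 368 UMIs in 11 of 516 cells, and at 461 CPM at 17 dpa, from 616 UMIs in 7 of 221 cells. A single cell held 395 of those 616 UMIs, and another held 148 of the 368. Without each library's highest cell, Elane was at 59.1 CPM in the unamputated library and 168 CPM at 17 dpa, so the order held. Mpo was at 59.2 and 138 CPM, from 4 and 5 cells, with 160 of the 184 UMIs at 17 dpa in 1 cell, and without the highest cells the order turned, 23.9 against 18.2 CPM (log2 ratio -0.37). The Mpo order also turned, to a log2 ratio of -1.54, with the stricter filter on cells.

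Over the mature class as a whole, S100a8 and S100a9 differed less between libraries than in whole libraries. In the order unamputated, 12, 17 and 28 dpa, S100a8 was at 16848 (16624 to 17075), 16715 (16365 to 17070), 16925 (16565 to 17291) and 13197 CPM (12764 to 13641). The first 3 values did not differ beyond their counting intervals, and the 28 dpa value was 1.28-fold lower. S100a9 was at 19404, 25623, 23623 and 23519 CPM, so it was 1.21-fold to 1.32-fold higher in the 3 dpa libraries. The mature class was not the same mix of cells in each library. When the neutrophils were clustered again (sub-clusters are described further on), 418, 202, 172 and 178 of its cells fell in sub-cluster 2, 52, 76, 48 and 3 in sub-cluster 3, and 56, 0, 16 and 1 in other sub-clusters. In the mature cells of sub-cluster 2 alone, S100a8 was at 11968 (11756 to 12182), 15839 (15441 to 16244), 12555 (12190 to 12927) and 13054 CPM (12619 to 13501), and S100a9 at 15259 (15020 to 15501), 28783 (28246 to 29328), 19897 (19438 to 20365) and 23522 CPM (22936 to 24118). Both were lowest there in the unamputated library and highest at 12 dpa, 1.32-fold and 1.89-fold above it, and S100a8 at 28 dpa was 1.09-fold higher, the opposite direction to the class as a whole. In sub-cluster 3, S100a8 was 1.08-fold lower at 12 dpa, at 19102 (18384 to 19842) against 20659 CPM (19889 to 21451), and S100a9 was 1.18-fold higher. The 27.6-fold and 72.7-fold lower S100a8 of the whole 12 and 28 dpa libraries was thus not seen within the mature class. The share of mature cells and the number of immature cells differed between libraries as given above.

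Of Camp, Ngp, Ltf and Lcn2, Lcn2 alone was above 50 CPM in mature cells of every library. In the same order it was at 104 (87.1 to 123), 297 (252 to 347), 194 (157 to 237) and 165 CPM (120 to 222), from 133, 154, 96 and 44 UMIs. The 12 dpa level was the highest, 2.85-fold above the unamputated library, and the 28 dpa interval overlapped those of the 17 dpa and unamputated libraries. With the 10 genes and the preset lists kept in the clustering, the Lcn2 log2 ratio of mature cells at 12 dpa became -0.012. The 12 dpa difference of the class thus depended on which cells were called mature.

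Camp, Ngp and Ltf were close to absent from mature cells. Camp had 42, 1, 7 and 1 UMIs in the unamputated, 12, 17 and 28 dpa libraries, or 32.9, 1.93, 14.1 and 3.75 CPM. Ltf had 46, 11, 11 and 1 UMIs, or 36.0, 21.2, 22.2 and 3.75 CPM. Ngp had 45, 1, 71 and 1 UMIs, and 45 of the 71 at 17 dpa lay in 1 cell, without which 26 UMIs (53.6 CPM) remained. In the unamputated library, Camp was 1312-fold (971 to 1821), Ngp 743-fold, Ltf 191-fold and Lcn2 91.5-fold higher in immature than in mature cells, and at 17 dpa 2786-fold, 171-fold, 247-fold and 49.5-fold. S100a8 differed far less between the classes, 7.94-fold and 6.18-fold, as did S100a9, 6.90-fold and 6.25-fold, Mmp8, 7.66-fold and 6.49-fold, and Retnlg, 4.38-fold and 5.22-fold.

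Retnlg and Mmp8 had their lowest mature level at 12 dpa. Retnlg was at 2519 (2433 to 2608), 435 (380 to 496), 3244 (3088 to 3407) and 1858 CPM (1698 to 2029) in the unamputated, 12, 17 and 28 dpa libraries. It was 5.79-fold lower at 12 dpa than in the unamputated library, while at 17 dpa 306 of its 1608 UMIs lay in 1 cell, without which it was at 2643 CPM. Mmp8 was at 106 (88.6 to 125), 36.6 (22.0 to 57.2), 125 (95.9 to 160) and 63.8 CPM (37.2 to 102), or 2.89-fold lower at 12 dpa. Its 28 dpa interval overlapped those of the 12 dpa and unamputated libraries. These folds moved with the mix of mature cells: in the unamputated library, 56 mature cells outside sub-clusters 2 and 3 held 1999 of the 3220 Retnlg UMIs and 58 of the 135 Mmp8 UMIs, and the 12 dpa library had 0 such cells. In the mature cells of sub-cluster 2 alone, Retnlg was at 1196 (1130 to 1266), 550.3 (478 to 630.2), 2036 (1890 to 2189) and 1800.2 CPM (1641 to 1971). It was 2.17-fold lower at 12 dpa there, and 1.70-fold and 1.505-fold higher at 17 and 28 dpa, so the 28 dpa direction was the opposite of that in the class as a whole. Mmp8 in the same cells was at 74.7 (58.9 to 93.5), 47.4 (28.1 to 74.9), 129 (94.2 to 172) and 65.3 CPM (38.0 to 104), and its 12 and 28 dpa intervals overlapped the unamputated one. The azurophil genes had 1, 0, 0 and 0 UMIs for Elane and 2, 0, 3 and 0 for Mpo in mature cells.

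**Figure D3:**
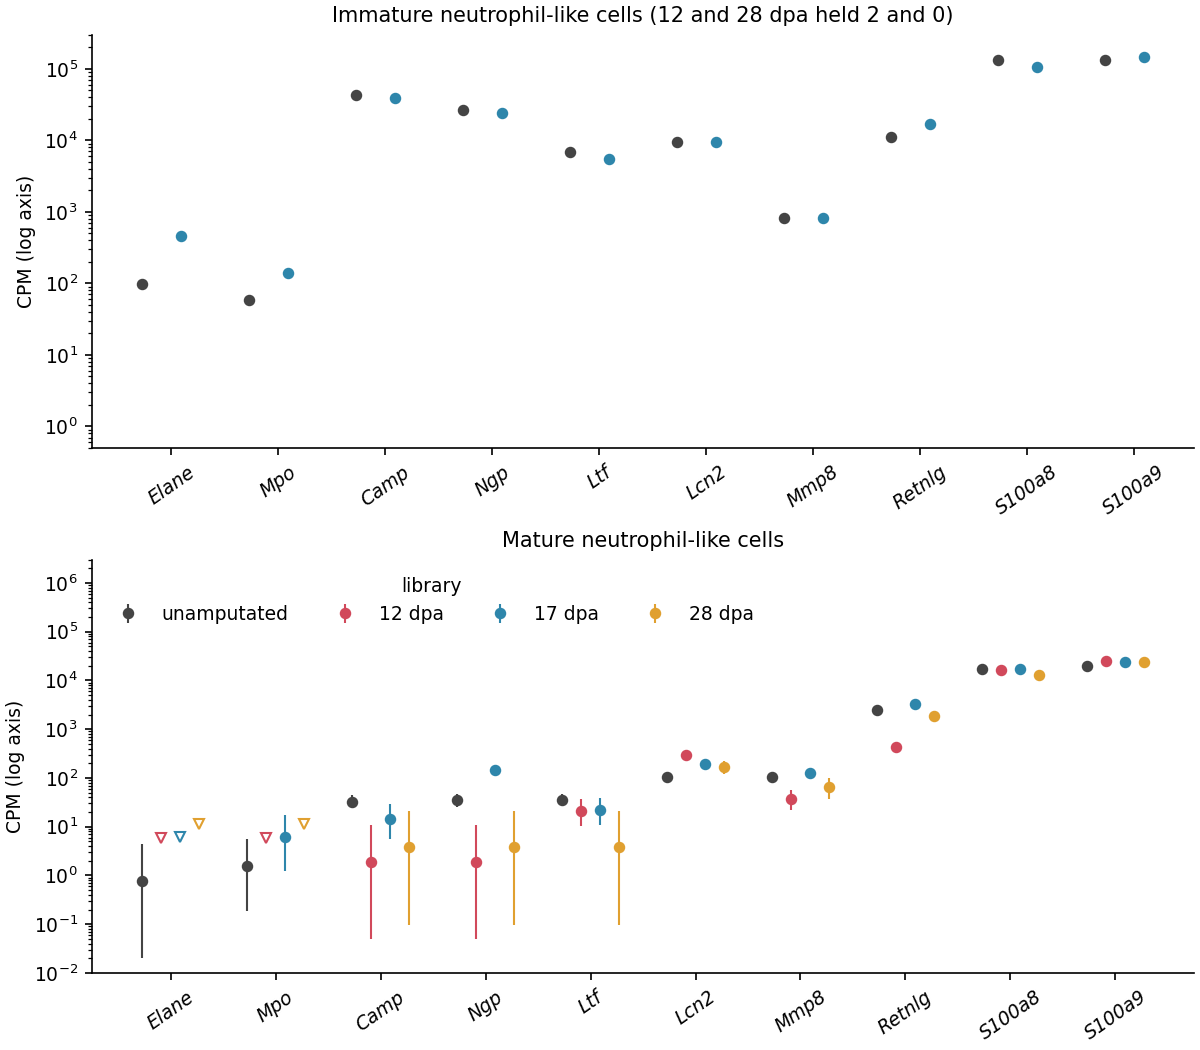
Level of each gene in CPM (log axis) in immature neutrophil-like cells, top, and mature neutrophil-like cells, bottom, with 1 point per library and exact Poisson 95% intervals; open triangles mark 0 UMIs, drawn at the level of 3 UMIs. In the top panel the unamputated and 17 dpa points lie within 1.54-fold of each other except for Elane and Mpo, and in the bottom panel S100a8 lies between 13197 and 16925 CPM in all 4 libraries while Retnlg is lowest at 12 dpa.

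Calls in mature cells were read against all genes of at least 50 CPM there. At 12 dpa, 1 of the 5 genes that reached the minimum was called higher (Lcn2), where 3.3% of genes were, and 2 of 5 lower (Mmp8 and Retnlg), where 7.97% were. In the mature cells of sub-cluster 2 alone, the log2 ratio at 12 dpa was -1.12 for Retnlg and -0.65 for Mmp8, so Mmp8 no longer passed the fold of the call. At 17 dpa, 1 of 6 was called higher (Ngp, through the 1 cell above), where 1.86% were, and 0 of 6 lower, where 2.35% were. At 28 dpa, 0 of 5 were called in either direction, where 6.26% of genes were higher and 6.67% lower. The median log2 ratios over the 10 genes were -1.10, 0.26 and -0.78. They were -1.15, 0.26 and -0.58 over the 8 genes left without Elane and Mpo, which had at most 3 UMIs in any library. All genes of at least 50 CPM, a minimum that 5 or 6 of the 10 genes reached, had medians of -0.16, -0.048 and -0.089. With genes of at least 20 CPM counted, 8 members were measured, and 4, 1 and 3 of them were called lower at 12, 17 and 28 dpa, where 9.72%, 4.26% and 9.13% of genes were, and 1, 1 and 0 higher, where 5.8%, 4.41% and 10.8% were. Camp, Ngp and Ltf, where called lower, reached 20 CPM through the unamputated library alone, so these counts are a description. Mmp8 at 12 dpa reached 50 CPM through the unamputated library alone, and Ngp at 17 dpa through the 17 dpa library alone.

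Both classes were also pooled, and the part of their mix in these values was not tested. At 12 dpa, 9 of 9 measured genes were lower than in the unamputated library, where 17.6% of genes were lower and 18.7% higher. At 28 dpa, 9 of 9 were lower, where 15.2% of genes were lower and 20.1% higher. Camp, Ngp, Ltf and Elane on both days, and Mmp8 at 12 dpa, reached 50 CPM through the unamputated library alone. These counts are therefore a description. At 17 dpa, 0 of 10 were lower, where 0.783% of genes were, and 2 of 10 (Elane and Mpo) were higher, where 0.926% were. Mpo reached 50 CPM through the 17 dpa library alone there. The median log2 ratios over the 10 genes were -5.03, -0.012 and -5.46 at 12, 17 and 28 dpa, or -4.23, -0.012 and -3.14 with genes at 0 set at their bound, beside 0.022, -0.071 and 0.18 over all genes. The 10 genes made up 28.2%, 4.37%, 26.7% and 3.88% of the UMIs of all neutrophils in the 4 libraries, and 3.91%, 4.31%, 4.43% and 3.88% of those of mature cells alone.

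Shares of cells with a UMI were compared at one depth. After thinning each cell to 1000 UMIs, S100a8 was detected in 90.9% of mature cells in the unamputated library, 91.4% at 12 dpa, 87.7% at 17 dpa and 82.4% at 28 dpa. Fibroblast-like cells, which should lack it, gave 1.78%, 0.625%, 2.05% and 0.0936%, at median depths of 19081, 12686, 12517.5 and 9054.5 UMIs before thinning. Without thinning the shares were 94.5%, 95.7%, 90.3% and 84.6% in mature cells and 25.04%, 2.81%, 17.9% and 0.983% in fibroblast-like cells. Camp, after thinning, was detected in 84.3% and 78.3% of immature cells in the unamputated and 17 dpa libraries, and in 4.18%, 0%, 0.847% and 0.549% of mature cells in the 4 libraries, where 0 of 278 cells at 12 dpa allows up to 1.08%. Fibroblast-like cells gave 0.593%, 0%, 0.821% and 0% for Camp. Without thinning, Camp was in 87.6% and 83.3% of immature cells, in 7.03%, 0.360%, 2.54% and 0.549% of mature cells, and in 11.9%, 0.312%, 7.66% and 0% of the deeper fibroblast-like cells. In the unamputated library, mature cells were thus above fibroblast-like cells with thinning and below them without it, so Camp in mature cells cannot be told apart from background here.

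Lcn2 and Retnlg were detected in part of the mature cells, in shares that moved with depth. Thinned shares for Lcn2 were 6.84% (4.84 to 9.35), 14.03% (10.2 to 18.7), 9.75% (6.28 to 14.3) and 8.24% (4.69 to 13.2), and 0.296%, 0%, 0.410% and 0.0468% in fibroblast-like cells. Those for Retnlg were 31.9%, 15.8%, 39.0% and 41.8%, and 0%, 0%, 0.342% and 0% in fibroblast-like cells. The 12 dpa share was the highest of the 4 for Lcn2, with an interval that overlapped those of 17 and 28 dpa, and the lowest for Retnlg. Without thinning the shares in mature cells were 12.4%, 18.7%, 17.4% and 11.5% for Lcn2 and 43.2%, 21.6%, 47.0% and 50% for Retnlg.

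Clustering the 1961 neutrophils again, without the 10 genes, gave 5 sub-clusters that differed in their levels of the genes. Sub-cluster 4 was led by Top2a, Prtn3 and Mki67, genes of dividing cells and of the azurophil granule, and held 76 cells in the unamputated and 29 in the 17 dpa library. It held 368 of 369 Elane UMIs and 221 of 223 Mpo UMIs of unamputated neutrophils, and all 616 Elane UMIs at 17 dpa. Camp was at its highest there, 58102 and 57308 CPM, and Retnlg lower than in sub-clusters 0 and 1, 589 and 943 CPM. Sub-cluster 0, led by Krt81 and Ly6g, held 238 and 76 cells and the highest Ngp (31493 and 33746 CPM), Ltf (9898 and 9450 CPM) and Lcn2 (12289 and 14564 CPM).

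Sub-cluster 1, with 258 and 127 cells, 314 of its 386 from the immature class, was led by the stefins Stfa2 and Stfa2l1 and held the highest Retnlg, 33497 and 37716 CPM, and the highest Mmp8, 1472 and 1417 CPM. Its Camp was lower than in sub-clusters 4 and 0, 10057 and 9802 CPM. S100a8 was at 107955 to 140218 CPM in these 3 sub-clusters of the unamputated library and at 88943 to 114280 CPM at 17 dpa. The sub-clusters 2 and 3, led by Isg15 and by Lipa, Prdx1 and Ccl3, held mature cells except for 7 of 977 in sub-cluster 2. Sub-cluster 3 made up 4.99%, 27.1%, 10.5% and 1.65% of the neutrophils of the unamputated, 12, 17 and 28 dpa libraries.

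Among mature cells, sub-clusters 2 and 3 differed in Retnlg and Mmp8, and in Lcn2 in the unamputated and 17 dpa libraries. In sub-cluster 3, Retnlg was at 30.4, 122 and 247 CPM in the unamputated, 12 and 17 dpa libraries. In the mature cells of sub-cluster 2 it was at 1196, 550.3 and 2036 CPM, with 1800.2 CPM at 28 dpa, where sub-cluster 3 held 3 cells. Mmp8 was at 7.61, 7.17 and 9.49 CPM in sub-cluster 3 and at 74.7, 47.4 and 129 CPM in mature cells of sub-cluster 2, with 65.3 CPM at 28 dpa. Lcn2 in mature cells of sub-cluster 2 was at 72.7 CPM in the unamputated library and 300 CPM at 12 dpa. The higher Lcn2 and the lower Retnlg at 12 dpa were thus both present within that sub-cluster. In sub-cluster 3, Lcn2 was at 236 (160 to 335) and 287 CPM (205 to 391), with intervals that overlapped. At 17 dpa, Lcn2 was at 137 CPM (101 to 181) in mature cells of sub-cluster 2 and 342 CPM (239 to 473) in sub-cluster 3. In sub-cluster 3 Retnlg was higher at 12 dpa than in the unamputated library, but from 17 and 4 UMIs. Across the unamputated library, S100a8 was higher in sub-cluster 3 than in sub-cluster 2, 20659 against 11968 CPM, and S100a9 was not, 14465 against 15259 CPM.

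**Figure D4:**
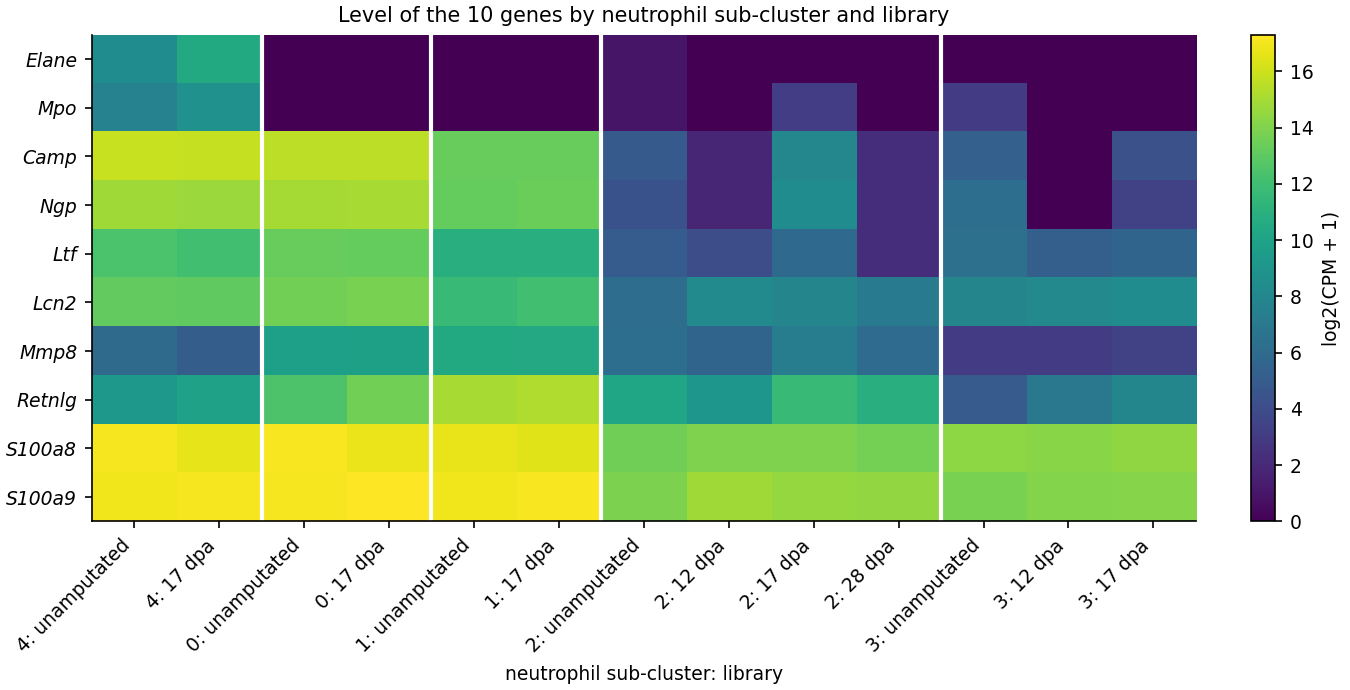
Level of the 10 genes as log2(CPM + 1), by colour, in each neutrophil sub-cluster and library with cells. Elane and Mpo are confined to sub-cluster 4 except for a few UMIs, Camp, Ngp, Ltf and Lcn2 are high in sub-clusters 4, 0 and 1, Retnlg and Mmp8 peak in sub-cluster 1, and S100a8 and S100a9 are present in every column.

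Cell by cell, Camp, Ngp, Ltf and Lcn2 went together in the immature class, and Camp and Retnlg went opposite ways. After thinning, Spearman's rho in the unamputated and 17 dpa libraries (516 and 221 cells) was 0.74 and 0.82 for Camp and Ngp, 0.66 and 0.75 for Camp and Ltf, and 0.75 and 0.76 for Camp and Lcn2. Camp and Retnlg had -0.75 and -0.69, and Camp and Mmp8 -0.31 and -0.21, whereas Mmp8 and Retnlg had 0.45 and 0.39. Mmp8 was closer to 0 with Ngp (-0.17 and -0.076), Ltf (-0.11 and -0.0046) and Lcn2 (-0.16 and -0.080). S100a8 and S100a9 had 0.62 and 0.78 in immature cells and 0.80, 0.69, 0.76 and 0.81 in mature cells. The cells of a library share its depth and free RNA, and these values are descriptions.

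Outside the neutrophils, Camp in fibroblast-like and keratinocyte-like cells was higher in the unamputated and 17 dpa libraries than in the other two. Fibroblast-like cells had Camp at 6.62, 0.237, 5.95 and 0 CPM and S100a8 at 14.8, 2.61, 15.3 and 1.67 CPM in the unamputated, 12, 17 and 28 dpa libraries. Keratinocyte-like cells had Camp at 6.33, 0.110, 3.80 and 0.445 CPM. In the unamputated and 17 dpa libraries, the UMIs were spread thinly, with Camp in 80 of 675 and 112 of 1462 fibroblast-like cells and at most 2 in a cell. The ratio of Camp to S100a8 there was 0.447 (0.344 to 0.577) and 0.390 (0.311 to 0.486), beside 0.322 and 0.376 in immature neutrophils and 0.00195 and 0.000834 in mature ones.

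Single cells set several of the higher values. Among T or NK lymphocyte-like cells at 17 dpa, 1 cell held 329 of 344 S100a8 UMIs and 44 of 45 Lcn2 UMIs. In Schwann-like cells at 12 dpa, 1 cell held 88 of 92 S100a8 UMIs, and in dendritic-like cells of the unamputated library 1 held 261 of 342. In vascular endothelial-like cells of the unamputated library, 1 cell held 792 of 1428 S100a8 UMIs, and the highest cell for Camp held 229 of 375. Whether these cells are undetected doublets was not tested.

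Monocyte-like cells, a related blood lineage, carried 2 of the genes in many cells. Mmp8 was at 154 CPM (135 to 175) in the unamputated library, with a UMI in 88 of 174 cells, which lay above the 106 CPM of mature neutrophils there, and at 70.2 CPM (46.6 to 101) at 17 dpa, below the 125 CPM of mature neutrophils. The highest single cell held 15 of the 238 Mmp8 UMIs. In fibroblast-like cells of the unamputated library Mmp8 was at 0.0744 CPM. S100a8 was at 957 and 1143 CPM in monocyte-like cells of the same 2 libraries, in 105 and 15 cells, but at 17 dpa 1 cell held 379 of 456 UMIs. Elane had 104 UMIs in 13 of 174 cells in the unamputated library, 58 of them in 1 cell, and 0 of 65 cells had a UMI at 17 dpa. The 12 and 28 dpa libraries held 7 and 30 monocyte-like cells, too few to give levels.

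The balance of the alarmin pair differed between cell classes and, within a class, between libraries. S100a9 UMIs per S100a8 UMI were 1.00 (0.997 to 1.00) in immature neutrophils of the unamputated library and 1.41 (1.40 to 1.42) at 17 dpa. In mature neutrophils as a whole the ratio was 1.15, 1.53, 1.40 and 1.78 in the 4 libraries. It was lowest in the unamputated and highest in the 28 dpa library, with no overlap of intervals. These ratios depend on the mix of mature cells, which differed between libraries. In sub-cluster 3, S100a9 was below S100a8 in the unamputated, 12 and 17 dpa libraries. The values were 14465 against 20659, 17015 against 19102 and 18042 against 22209 CPM. In mature cells of sub-cluster 2, S100a9 was above S100a8 in every library. It was at 28783 against 15839 CPM at 12 dpa, and 23522 against 13054 CPM at 28 dpa. Fibroblast-like cells had ratios of 1.40, 1.57 and 1.54 in the unamputated, 17 and 28 dpa libraries. Monocyte-like cells had 0.263 (0.234 to 0.294) in the unamputated library, or 0.105 without the 5 cells with the most UMIs. The unnamed cluster 0, led by Mmp12, Acp5 and Atp6v0d2, had 0.381, 0.162, 0.349 and 0.233, or 0.403, 0.107, 0.441 and 0.136 without the 5 cells with the most UMIs. Its S100a8 level was 76.1, 83.7, 86.1 and 78.6 CPM, but 5 cells held 97 of its 163 S100a8 UMIs at 28 dpa, against 104 of 1080, 102 of 605 and 117 of 481 in the unamputated, 12 and 17 dpa libraries, so the 28 dpa level rested on those cells. Macrophage-like cells had 0.771 (0.648 to 0.917), 0.0800 (0.0336 to 0.164), 1.05 (0.855 to 1.28) and 0.252 (0.173 to 0.358) in the unamputated, 12, 17 and 28 dpa libraries. These intervals did not overlap those of mature neutrophils of the same library.

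**Figure D5:**
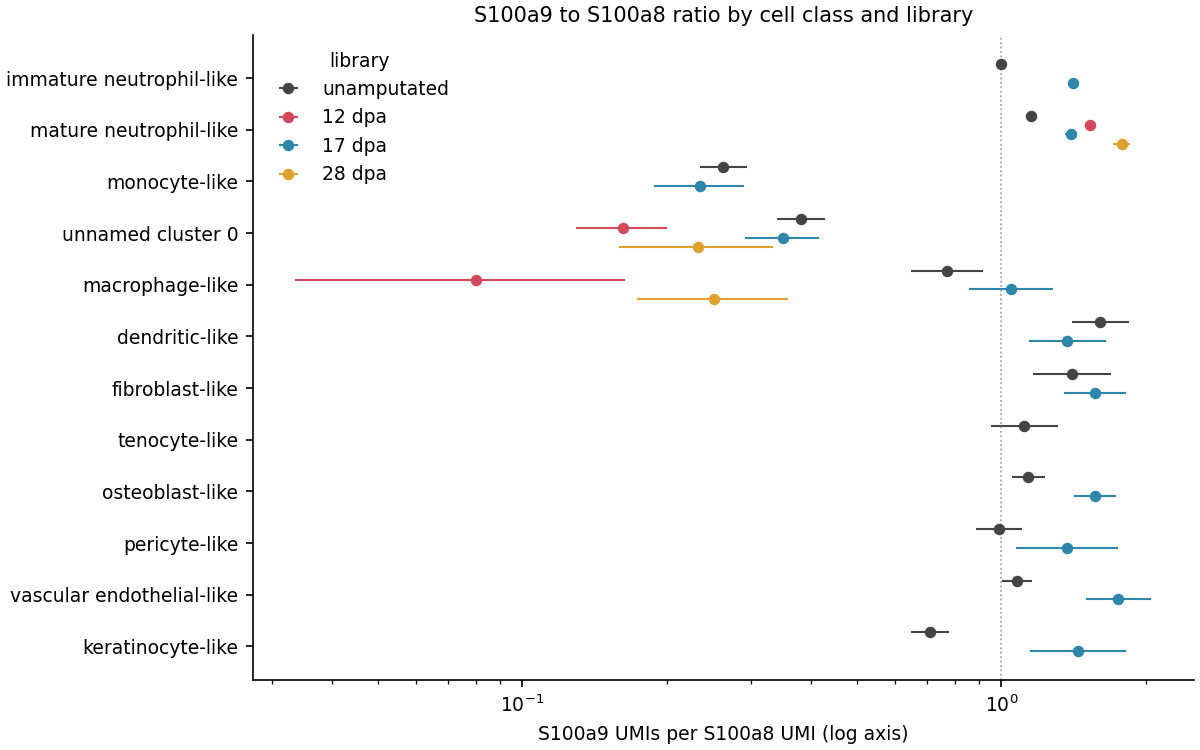
S100a9 UMIs per S100a8 UMI on a log axis, by cell class, with 1 point per library and bars for the exact 95% interval; the dotted line marks equal counts. Immature and mature neutrophils lie between 1.00 and 1.78, and monocyte-like cells and the unnamed cluster 0 lie below 0.4.

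Lcn2 and Mpo had low levels outside the myeloid classes. Lcn2 in keratinocyte-like cells was at 4.48 (3.73 to 5.34), 2.42 (1.51 to 3.66), 3.80 (2.63 to 5.31) and 2.56 CPM (1.88 to 3.42), while S100a8 there was at 38.7, 10.9, 14.6 and 1.503 CPM. Per S100a8 UMI, Lcn2 was at 0.116, 0.222, 0.260 and 1.70 in keratinocyte-like cells, at 0.00618 to 0.0177 in mature neutrophils, and at 0.0711 and 0.0917 in immature neutrophils of the unamputated and 17 dpa libraries. Fibroblast-like cells had 0.121 and 0.152 in those libraries, near the keratinocyte-like value in the unamputated one. Mpo in tenocyte-like cells was at 1.08, 2.15, 2.65 and 1.00 CPM, with 66 UMIs in 61 of 1779 cells at 12 dpa, a library where neutrophils had none. Vascular endothelial-like cells had 1, 0, 0 and 0 Mpo UMIs. Mpo overlaps the antisense gene Gm11505 in GENCODE M21, and whether the counting used strand is not given in the sources used here, so these UMIs cannot be assigned to Mpo with certainty.

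Other genes of the same granules were described from lists chosen with earlier results of these data known, as counts beside the shares above. Of 6 further azurophil genes, 3 reached 50 CPM in immature cells, and 2 of 3 were called higher at 17 dpa. Prtn3 (proteinase 3) was at 265 against 80.6 CPM, and Ctsg (cathepsin G) at 107 against 30.2 CPM. Ctsg reached 50 CPM through the 17 dpa library alone, so its call is a description. Over all libraries, both lay mainly in sub-cluster 4, at 438 and 172 CPM, as did Elane. Of 14 further specific granule genes, 13 were measured there and 1 was called, Olfm4 (olfactomedin 4), higher at 17 dpa with 1154 against 382 CPM. Their median log2 ratio was -0.12, close to the -0.075 of all genes. In mature cells, 9 of the 14 were measured. At 12 dpa 1 was higher, Lrg1 (leucine-rich alpha-2-glycoprotein), at 245 against 53.2 CPM, beside the higher Lcn2. At 17 dpa 1 was higher, Cybb (a subunit of the NADPH oxidase), at 169 against 67.3 CPM, and at 28 dpa 1 was lower, Olfm4, at 41.3 against 100.1 CPM. Olfm4 reached 50 CPM through the unamputated library alone there.

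The gelatinase and membrane genes differed little in mature cells, with 1 call among 7 measured at 12 dpa, Fpr1 (a formyl peptide receptor), at 131 against 55.5 CPM, and 0 of 7 at 17 and 28 dpa. Of the other S100 genes, 3 of 5 measured in mature cells at 28 dpa were called higher: S100a4 at 488 against 78.2 CPM, S100a10 at 165 against 31.3 CPM and S100a13 at 93.8 against 41.5 CPM. S100a10 and S100a13 reached 50 CPM through the 28 dpa library alone in that comparison. S100a6 and S100a11 were not called, with log2 ratios of 0.74 and 0.51. At 17 dpa 2 of 5 were called higher, S100a4 and S100a10, and at 12 dpa 0 of 3. S100a10 reached 50 CPM through the 17 dpa library alone in that comparison. Pf4, a gene of platelets and macrophages, was at 10.95 and 97.6 CPM in mature cells of the unamputated and 28 dpa libraries, and the part of RNA from other cells in these values was not tested.

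Of the receptors, Tlr4 and Cd14, through which released S100a8 and S100a9 act, had their highest class level in mature neutrophils, 256 CPM at 12 dpa and 6625 CPM at 28 dpa. In mature cells, 0 of 5 measured receptor genes were called at 12, 17 or 28 dpa. The receptor for advanced glycation end products, Ager, was highest in smooth muscle-like cells, at 6.62 CPM. Of the inhibitors of granule proteases, Timp2 was called higher in mature cells at 28 dpa, at 248 against 98.6 CPM. Serpinb6a was at 52.5 against 12.5 CPM there, from 14 and 16 UMIs, and since it reached 50 CPM through the 28 dpa library alone, its call followed from the minimum. Of these inhibitors, 0 of 3 at 12 dpa and 0 of 4 at 17 dpa were called. Among chemokine and receptor genes, Cxcl3 was called higher at 12 dpa (225 against 111 CPM), 1 of 7 was higher at 17 dpa, Cxcl1 (252 against 86.8 CPM), and 1 of 7 was lower at 28 dpa, Cxcl3 (52.5 CPM). Csf3, which encodes the growth factor G-CSF, was at 50.1 CPM at 12 dpa against 7.82 CPM, from 26 and 10 UMIs, and its call also followed from the minimum, which it reached at 12 dpa alone. Of the transcription factors of granulocyte development, 5 were measured in mature and 7 in immature cells and 0 were called in either, and of the resistin family 0 of 3 reached the minimum.

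The genes most like the specific granule trio were found by Pearson's r across 63 class-by-library units over 8873 genes. For the mean of Camp, Ngp and Ltf these were Itgb2l (0.89), Ly6g (0.88), Abca13 (0.85), Slco4c1 (0.84) and Ceacam10 (0.81). For the mean of S100a8 and S100a9 they included Wfdc21 (0.89), Nfe2 and Rab44 (each 0.88) and Trpm2 (0.87). For Lcn2 they were Wfdc21 (0.94), Abca13 (0.92), Ly6g (0.91), Nfe2 (0.91) and Mrgpra2a (0.90). Of the genes named here, Rab44 and Trpm2 had their highest level in mature cells and the others in immature cells. The units share libraries and free RNA, and Itgb2l and Ly6g were also among the class markers.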

How the data were processed

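Single-cell RNA-seq (10x 3′ version 3) was made from 4 libraries, 1 per group. The deposited matrices hold raw UMI counts per gene and barcode, whole numbers that the authors made with Cell Ranger 7.1.0 on mm10, per the submitters' processing notes. The filter on cells asked for 500 genes, 1000 UMIs and no more than 10% of UMIs from mitochondrial genes. Likely doublets, ranked by Scrublet score, were taken out at a rate of 0.8% per 1000 barcodes. Kept cells, without the 10 genes and the 10 gene lists, were clustered jointly (scanpy 1.11.5, 2000 variable genes, 30 components, 15 neighbours, Leiden resolution 1) and named from markers of 23 classes. Counts were summed per class and library, scaled to CPM and compared as log2 ratios with 1 CPM added. The members, lists and markers were chosen with earlier results of these data known. The text names all 10 members, up to 4 genes per list of at least 50 CPM with the largest ratios, and the 5 genes most like each of 3 profiles (1 such gene is not reported here), with some further list genes and other genes added after their values were seen. Alternatives varied the filters, doublets, clustering, scaling and thinning. Those for mature and immature cells apart and without each gene's highest cell, and the sub-clusters, were chosen after seeing the data. Python 3.11.15 was used.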

Additional observations from a re-analysis of the deposited data

How the results depend on the processing

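The neutrophil share became 10.8% in the unamputated library with each cell named alone, and 0.558%, 3.18% and 0.0576% at 12, 17 and 28 dpa with the stricter filter. The whole-library median log2 ratio of the 10 genes at 12, 17 and 28 dpa was -7.43, -1.07 and -7.98 with the stricter filter, -4.70, -0.80 and -4.88 from the mean of CPM per cell, and -4.31, -0.52 and -4.43 with 10 CPM added. At 17 dpa it was -0.47 without doublet removal and -0.39 over all barcodes. In all neutrophils the median at 12 and 28 dpa was -5.77 and -6.37 without doublet removal, -4.38 and -4.34 per cell, and -4.05 and -3.09 with 10 CPM added. At 17 dpa it lay near 0 throughout, at -0.057 with the genes and lists kept in the clustering, 0.042 with the stricter filter, -0.042 with CPM taken without the 10 genes, -0.080 without each gene's highest cell and 0.11 with sub-clusters weighted as in the unamputated library. The mature median was -0.39 at 12 dpa with 10 CPM added, 0.82 at 17 dpa without doublet removal and -1.76 at 28 dpa with the genes kept in the clustering. The immature median at 17 dpa was 0.052 without doublet removal, -0.028 without the 10 genes in the CPM and -0.058 without the highest cells. With genes of at least 20 CPM, 4, 1 and 3 of 8 members were called lower in mature cells at 12, 17 and 28 dpa, beside 9.72%, 4.26% and 9.13% of all genes. The direction turned for Mpo at 17 dpa, to -1.52, -1.39 and -0.27 in all neutrophils and -1.54, -1.54 and -0.37 in immature cells with the genes kept in the clustering, the stricter filter and the highest cell left out, and for Lcn2 at 12 dpa in mature cells, to -0.012 with the genes kept in the clustering. The cause was not tested. The stricter filter left too few neutrophils for a median at 12 and 28 dpa, and sub-cluster weighting gave no value there. No paired analysis was possible because each group holds 1 library. Counts of 0 to 3 UMIs limit Elane, Mpo, Camp, Ngp and Ltf in mature cells.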
